A study of Mus musculus with 8 samples.

Results

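The genes described here are 32 genes of the endoplasmic reticulum (ER) that fold, modify and export secretory proteins or pass misfolded ones to degradation, together with the stress sensors that control many of them. They were taken from the 24411 rows of the deposited count table by a list of symbols, and all 32 were found. All 32 also passed the filter on low counts, which kept 13633 genes of the whole table. By role they comprise 3 sensors and transcription factors, 4 luminal chaperones of the HSP70 and HSP90 families, 4 co-chaperones of BiP, 2 lectin chaperones, 7 folding enzymes (oxidoreductases and a prolyl isomerase), 2 secreted stress factors, 7 genes of ER-associated degradation (ERAD) and 3 genes of the translocon.

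Proteins that enter the ER are threaded through the Sec61 channel, bound by BiP and its J-domain co-chaperones, given disulfide bonds by the protein disulfide isomerases and, when glycosylated, held by calnexin and calreticulin. Proteins that fail to fold are drawn back to the cytosol through the Hrd1 complex and degraded by the proteasome. When unfolded proteins build up, the membrane sensors IRE1α, ATF6 and PERK start the unfolded protein response: IRE1α splices Xbp1 mRNA, ATF6 is cleaved to a transcription factor, and PERK phosphorylates eIF2α, which favours translation of ATF4. Chaperone and ERAD genes are classical targets of ATF6 and spliced XBP1, whereas ATF4 is best known for genes of amino acid supply and redox balance, and the liver, which secretes most plasma proteins, carries a large ER.

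The study asked which pathways triclosan (TCS), an antimicrobial in consumer products, alters in neonatal liver, and what the loss of ATF4 in hepatocytes changes. Liver RNA was sequenced from 4 groups: hUGT1/Atf4ΔHep mice given TCS, hUGT1/Atf4ΔHep mice given vehicle, hUGT1/Atf4F/F mice given TCS and hUGT1/Atf4F/F mice given vehicle. All groups carry the human UGT1 locus in place of the mouse Ugt1 genes, the ΔHep mice lack Atf4 where the albumin promoter drives Cre, and the F/F mice keep the floxed gene intact. TCS was given by mouth at 50 mg/kg on 4 consecutive days to male and female neonatal pups, whose age at the first dose is given as 10 days or as 14 days. Each library holds the pooled RNA of 2 mice and each group has 2 libraries, so that the p-values below measure the spread between pools.

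The libraries held 11624143 to 25573210 counts. Atf4 stood at 17.4 to 19.7 CPM (counts scaled to a common library size, with TMM factors) in the 4 hUGT1/Atf4ΔHep libraries and at 58.6 to 62.8 CPM in the 4 hUGT1/Atf4F/F libraries, in keeping with the genotypes on the labels. The 6 hepatocyte markers examined were abundant in every library, and their sum was lower in all TCS pools than in all vehicle pools, at 135969 and 126985 CPM in TCS-treated and 140320 and 149193 CPM in vehicle-treated hUGT1/Atf4ΔHep livers, against 139742 and 123419 CPM in TCS-treated and 146680 and 152051 CPM in vehicle-treated hUGT1/Atf4F/F livers. None of these 6 markers was called for TCS, but 5 of 6 values were below 0 in each genotype, with median log2 fold changes of -0.14 in hUGT1/Atf4ΔHep and -0.17 in hUGT1/Atf4F/F livers. Median values for TCS in the same order of genotypes were -0.20 and -0.27 for 4 endothelial, -0.35 and -0.25 for 5 macrophage and -0.60 and -0.81 for 7 neutrophil markers. For 5 stellate markers they were -0.26 and 0.0032, so that this set was not lower in hUGT1/Atf4F/F livers. The pools differed in sex makeup: the female transcript Xist had 718 and 758 CPM in TCS-treated hUGT1/Atf4F/F pools, against 23.2 and 1.05 CPM in vehicle-treated ones, whereas each hUGT1/Atf4ΔHep group had 1 pool of the high and 1 of the low kind. Transcripts of 13 of 14 pancreatic acinar markers were also present, their sum being 127 and 117 CPM in TCS-treated and 18.6 and 14.96 CPM in vehicle-treated hUGT1/Atf4ΔHep livers, against 67.9 and 49.8 CPM in TCS-treated and 9.79 and 54.9 CPM in vehicle-treated hUGT1/Atf4F/F livers; Amy2a5 alone had no count. In bulk liver, fewer cells of a type and less RNA per cell cannot be told apart.

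The promoters of these genes are shown first, since some of them hold the element through which ATF6 is known to act. That element, the ER stress response element (ERSE), is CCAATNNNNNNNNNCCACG, in which the CCAAT end binds NF-Y. RefSeq windows from 250 bases before to 50 bases after the start site (build GRCm38.p6, the patch release of mm10) were matched for 26 of the 32 genes, 24 by symbol and 2 by an older symbol, and both strands were searched. ERSE was found in 10 of these 26 windows (38.5%), namely those of Hspa5, Hsp90b1, Dnajc3, Calr, Canx, Pdia6, Ero1lb, Creld2, Syvn1 and Derl3, against 0.119% of the 32851 windows in the table. The related ERSE-II, ATTGGNCCACG, was in 2 of 26 windows (7.69%), those of Herpud1 and Dnajb11, against 0.0365% of all windows. The genes were listed as targets of the unfolded protein response and ERAD genes, so these shares describe the list and are not an independent finding. CCAAT alone, which lies within ERSE and, on the other strand, within ERSE-II, was in 80.8% of the 26 windows and in 37.4% of all windows. The stretches below run 5′ to 3′ on the strand of the gene from 15 bases before the first motif to 15 bases after the last, counted from the start site, with ERSE, ERSE-II and 2 further motifs in capitals. Not all of the 11 stretches found before the start site are printed. Those chosen show the promoter of BiP, that of the gene with 2 copies of ERSE, and those of some of the genes whose values are described below.
Hspa5 (chr2:34771918-34772058, plus strand, bases -172 to -32): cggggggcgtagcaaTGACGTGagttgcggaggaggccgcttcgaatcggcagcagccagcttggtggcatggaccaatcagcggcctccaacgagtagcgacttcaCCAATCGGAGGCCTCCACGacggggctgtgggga
Hsp90b1 (chr10:86705518-86705671, minus strand, bases -227 to -74): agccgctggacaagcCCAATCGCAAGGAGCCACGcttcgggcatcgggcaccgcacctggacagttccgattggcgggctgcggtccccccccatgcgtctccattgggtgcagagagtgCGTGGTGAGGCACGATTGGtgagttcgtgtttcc
Calr (chr8:84847060-84847108, minus strand, bases -177 to -129): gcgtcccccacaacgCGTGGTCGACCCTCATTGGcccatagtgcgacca
Pdia6 (chr12:17266476-17266524, plus strand, bases -113 to -65): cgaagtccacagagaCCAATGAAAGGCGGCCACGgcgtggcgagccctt
Ero1lb (chr13:12565667-12565715, plus strand, bases -216 to -168): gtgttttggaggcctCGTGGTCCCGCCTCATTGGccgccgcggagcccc
Herpud1 (chr8:94386302-94386402, plus strand, bases -127 to -27): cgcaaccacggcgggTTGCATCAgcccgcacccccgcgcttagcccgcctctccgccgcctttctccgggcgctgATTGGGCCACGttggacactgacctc
Derl3 (chr10:75893227-75893275, plus strand, bases -171 to -123): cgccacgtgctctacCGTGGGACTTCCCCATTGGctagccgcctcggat

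In the Hspa5 stretch, the first capitals are TGACGTG, the core of the XBP1-bound unfolded protein response element (UPRE), and the second are ERSE at bases -65 to -47. UPRE was in 1 of the 26 windows (3.85%) and in 2.01% of all windows. In the Herpud1 stretch, the capitals nearest the start site are ERSE-II at bases -52 to -42, and those farther away are the reverse complement of TGATGNAA, the C/EBP-ATF response element (CARE) to which ATF4 binds with C/EBP partners, at bases -112 to -105. CARE was in 1 of the 26 windows (3.85%), that of Herpud1, and in 3.97% of all windows. The windows of Sdf2l1, Ppib and Pdia3 held CCAAT and none of the other 4 motifs. A match describes the letters in the window and is not a measurement of binding.

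Levels of different genes were compared as CPM per kilobase of exon (GENCODE M21). P4hb, the disulfide isomerase PDI itself, was highest with a mean of 454 CPM per kb over the 8 libraries (435.8 to 465), followed by Calr, the lectin chaperone calreticulin, at 244 (227 to 282), and Hsp90b1, the luminal HSP90 known as GRP94, at 186 (171 to 209.6). Neither of these neighbours overlapped in range. Hspa5, which encodes the luminal HSP70 BiP, came next at 131 CPM per kb (107 to 149) and overlapped with the disulfide isomerase Pdia3 at 117 (107 to 133). A second tier of Pdia4, Herpud1, Ppib and Canx lay between 68.9 and 71.7 CPM per kb on average and overlapped one another in range, whereas Canx did not overlap with Xbp1, the next in rank. The membrane sensors were low, with Atf6 at 7.21 and Ern1, the gene of IRE1α, at 5.77 CPM per kb, while Xbp1, the substrate of IRE1α, stood at 46.3. Hspa13 was the lowest but one at 4.41 CPM per kb (3.97 to 4.74), and Derl3 was apart from all others at 0.438 CPM per kb (0.166 to 0.818).

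**Figure D1:**
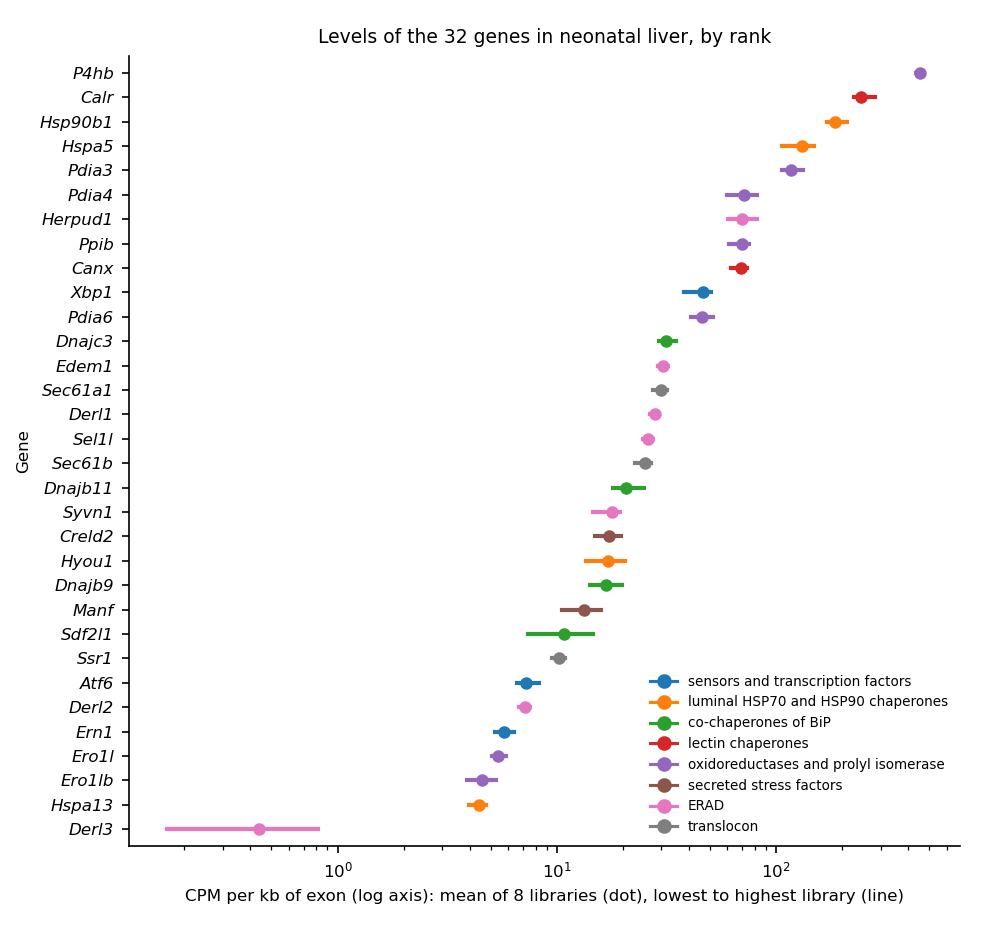
Level of each of the 32 genes in CPM per kilobase of exon on a log axis, ordered by rank and coloured by role; dots are means of 8 libraries and lines run from the lowest to the highest library. The genes span from 0.438 for Derl3 to 454 for P4hb, and for most genes the line is short beside the distance covered by the ranking.

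Across all 8 libraries, whatever the treatment and genotype, most of these genes kept within a narrow band. The highest library exceeded the lowest by under 1.5 times for 29 of the 32 genes, with a median ratio of 1.25, against 1.35 over all genes tested. The share of all genes under 1.5 was not computed, so the band is not shown to be particular to these genes. The smallest ratio was 1.07. Derl3, at 5 to 27 counts per library, had the largest ratio at 4.93, and Sdf2l1, at 135 to 280 counts, the next at 1.98.

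The 2 pools of a group also differed from each other, and there many of the genes went the same way. In vehicle-treated hUGT1/Atf4ΔHep livers, 31 of the 32 genes (96.9%) were higher in replicate 1 than in replicate 2, with a median log2 ratio of 0.14, whereas 50.6% of all genes tested were. In vehicle-treated hUGT1/Atf4F/F livers, 27 of 32 (84.4%) were higher in replicate 1, with a median of 0.12, against 51.0% of all genes. Other chaperones and ER genes also leaned to replicate 1 in these groups. In the same order, the shares were 73.1% and 84.6% of the 26 cytosolic and mitochondrial chaperones described below. They were 68.7% and 68.4% of the further ER genes described below. The TCS-treated pools were closer. In hUGT1/Atf4ΔHep, 24 of 32 (75%) were higher in replicate 1 (median 0.07), against 50.2% of all genes. In hUGT1/Atf4F/F, 9 of 32 (28.1%) were (median -0.06), against 49.9% of all genes. The cytosolic and mitochondrial chaperones stood at 19.2% in both of these groups, and the further ER genes at 67.7% and 53.5%. The summed level of the 32 genes shows the same order, with 6606 and 6308 CPM in TCS-treated and 7101 and 6305 CPM in vehicle-treated hUGT1/Atf4ΔHep livers, against 6509.7 and 6819.5 CPM in TCS-treated and 6685 and 6160.5 CPM in vehicle-treated hUGT1/Atf4F/F livers. The highest sum, in 1 vehicle-treated ΔHep pool, and the lowest, in 1 vehicle-treated F/F pool, both belong to untreated mice, and the sums of the TCS-treated groups lie between them. Among the 12 genes with ERSE or ERSE-II in the window, 12 were higher in replicate 1 of vehicle-treated hUGT1/Atf4ΔHep livers (median 0.21) and 11 in replicate 1 of vehicle-treated hUGT1/Atf4F/F livers (median 0.13). Among the 14 with a window and neither motif these counts were 13 (median 0.07) and 10 (median 0.08). In the TCS-treated pools, replicate 1 was the higher for 10 of 12 genes with the motifs (median 0.10) and 9 of 14 without (median 0.05) in hUGT1/Atf4ΔHep, and for 4 of 12 with (median -0.07) and 3 of 14 without (median -0.07) in hUGT1/Atf4F/F livers.

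**Figure D2:**
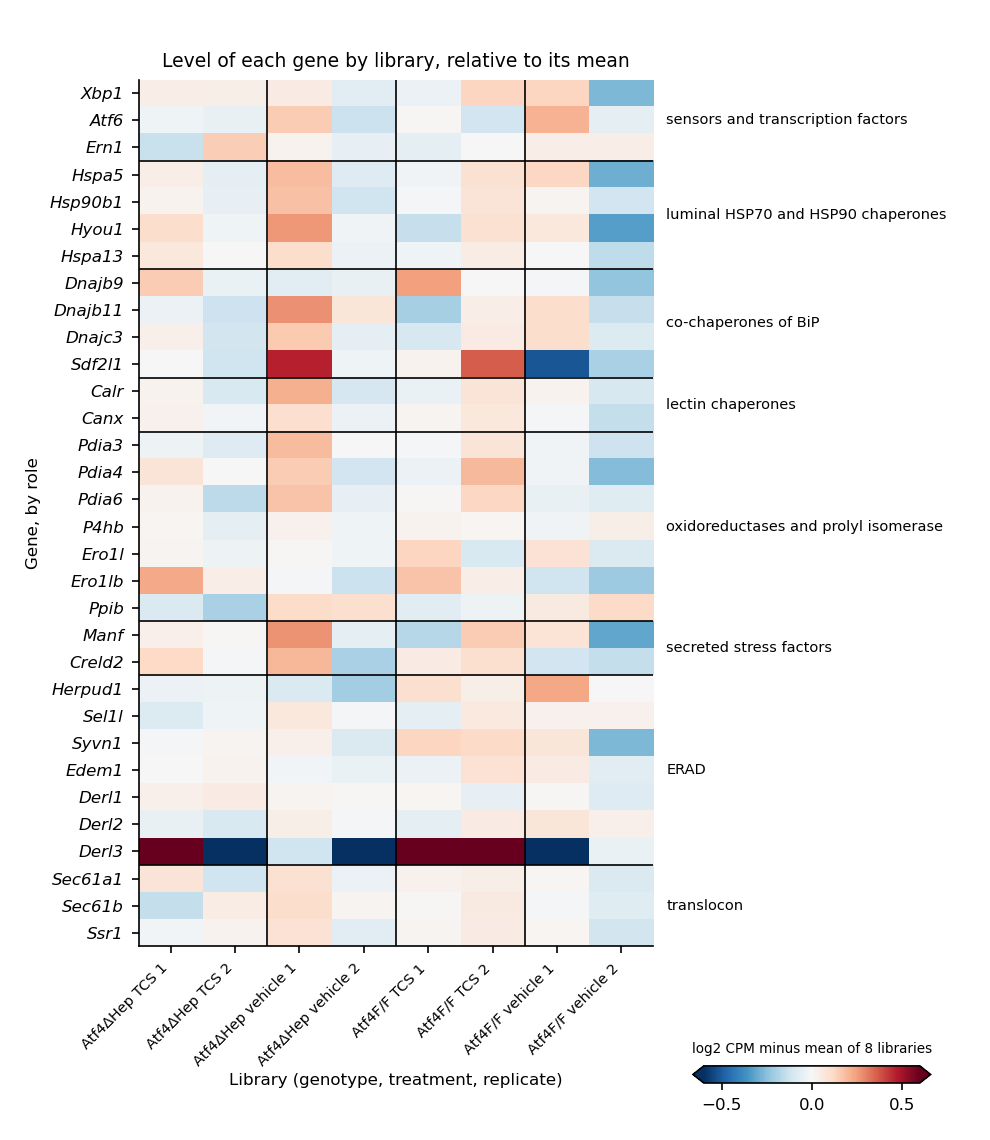
Heat map of the 32 genes (rows, grouped by role) in the 8 libraries (columns), as log2 CPM minus the mean over the libraries of that gene; red is above and blue below the mean, and values beyond 0.6 take the end colour. The first vehicle-treated hUGT1/Atf4ΔHep column is mostly red and the second vehicle-treated hUGT1/Atf4F/F column mostly blue, whereas Derl3 and Sdf2l1 show the strongest colours of single genes.

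Tests were made with the quasi-likelihood model of edgeR over all 8 libraries, with p-values adjusted over the 13633 genes and a threshold of 0.05. None of the 32 genes passed this threshold in any of the 7 comparisons, and each comparison is given below with the share of all genes that passed.

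TCS in hUGT1/Atf4ΔHep livers called 0 of the 32 genes, where 0.675% of all genes were called, and 2 of them had an unadjusted p under 0.05 (11.5% of all genes), the same counts as with DESeq2. The median log2 fold change was -0.04, with a range of -0.31 to 0.58, against -0.01 over all genes, and 11 of 32 values were above 0 (48.9% of all genes). The pools of the 2 treatments did not overlap for 5 genes that were higher under TCS (Dnajb9, Ero1lb, Herpud1, Edem1 and Derl1) and for 5 that were lower (Dnajb11, Pdia3, Ppib, Sel1l and Derl2), where 21.5% of all genes were apart in each direction. This balance moved with the vehicle pools in both directions: 24 of 32 values were above 0 without replicate 1 of the vehicle-treated hUGT1/Atf4ΔHep group (median 0.06), and 7 of 32 without its replicate 2 (median -0.11).

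TCS in hUGT1/Atf4F/F livers likewise called 0 of the 32 genes with edgeR and with DESeq2, where edgeR called 0.557% of all genes. At an unadjusted p under 0.05 there were 3 genes with edgeR (9.73% of all genes) and 1 with DESeq2. The median log2 fold change was 0.08, with a range of -0.13 to 1.51, against -0.0036 over all genes, and 24 of 32 values were above 0 (49.2% of all genes). The pools did not overlap for 12 genes that were higher under TCS (Dnajb9, Sdf2l1, Canx, Pdia3, Pdia6, Ero1lb, Creld2, Syvn1, Derl3 and all 3 translocon genes, Sec61a1, Sec61b and Ssr1), where 19.7% of all genes were apart, and for 2 that were lower (Ern1 and Ppib), where 19% were. The vehicle pools again moved the count both ways: 27 of 32 values were above 0 without replicate 1 of the vehicle-treated hUGT1/Atf4F/F group (median 0.14), and 17 of 32 without its replicate 2 (median 0.0044). With the Y-linked share of each pool as a covariate, 16 of 32 were above 0, and since both TCS-treated pools of this genotype hold more female RNA than both vehicle-treated ones, treatment and sex makeup differ together there and can be told apart only through the other genotype.

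Averaged over genotypes, TCS called 0 of the 32 genes with edgeR, where 2.59% of all genes were called, and 1 with DESeq2, which was Ppib; 3 and 2 genes had an unadjusted p under 0.05 with these tools (17.2% of all genes with edgeR). All 4 TCS pools were above all 4 vehicle pools for 1 gene, Ero1lb (7% of all genes), and below them for 1 gene, Ppib (5% of all genes). The median over the 32 genes was 0.01.

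Deletion of Atf4 under TCS called 0 of the 32 genes (0.022% of all genes), with none under an unadjusted p of 0.05 either (3.16% of all genes) and the same counts with DESeq2. The median log2 fold change was -0.04 and 7 of 32 values were above 0 (50.1% of all genes). That count was 5 without replicate 1 and 13 without replicate 2 of the TCS-treated hUGT1/Atf4ΔHep group, 6 without replicate 1 and 14 without replicate 2 of the TCS-treated hUGT1/Atf4F/F group, and 17 with the covariate for sex makeup. The pools did not overlap for 1 gene that was higher in the deleted livers, Derl1 (15.3% of all genes), and for 7 that were lower, namely Sdf2l1, Pdia3, P4hb, Ppib, Herpud1, Syvn1 and Derl3 (15.3% of all genes).

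Deletion of Atf4 under vehicle called 0 of the 32 genes (0.022% of all genes) with both tools, and 2, Herpud1 and Sdf2l1, had an unadjusted p under 0.05 (2.87% of all genes). The median was 0.06 and 24 of 32 values were above 0 (49.4% of all genes). That count was 14 of 32 without replicate 1 of the vehicle-treated hUGT1/Atf4ΔHep group (median -0.0041) and 28 of 32 without its replicate 2 (median 0.14). It was 26 of 32 without replicate 1 of the vehicle-treated hUGT1/Atf4F/F group (median 0.14) and 21 of 32 without its replicate 2 (median 0.02). With the covariate for sex makeup it was 21 of 32 (median 0.04). Sex makeup differs in part here too. Xist had 778 and 4.50 CPM in the vehicle-treated hUGT1/Atf4ΔHep pools, against 23.2 and 1.05 CPM in the vehicle-treated hUGT1/Atf4F/F pools. Pools were apart for 4 genes that were higher in the deleted livers (Sdf2l1, Pdia3, Derl1 and Sec61b, 15.3% of all genes) and 2 that were lower (Ern1 and Herpud1, 14.9% of all genes). This comparison and TCS in hUGT1/Atf4F/F livers share the vehicle-treated hUGT1/Atf4F/F pools, so that their counts are not separate evidence. Averaged over treatments, the deletion called 0 of 32 genes (0.044% of all genes), again 0 with DESeq2, and 1, Herpud1, had an unadjusted p under 0.05 (3.89% of all genes). All 4 deleted pools lay above all 4 intact pools for none of the 32 genes (1.23% of all genes) and below them for Herpud1 (1.01% of all genes).

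The interaction, the effect of TCS in hUGT1/Atf4ΔHep minus that in hUGT1/Atf4F/F livers, called 0 of the 32 genes and 0% of all genes with edgeR. At an unadjusted p under 0.05 there were 2 genes, Sdf2l1 and Pdia3 (2.07% of all genes), and 2 with DESeq2. Its median over the 32 genes was -0.12, against 0.0019 over all genes, and 5 of 32 values were above 0 (50.4% of all genes). The median was -0.02 without replicate 1 and -0.17 without replicate 2 of the vehicle-treated hUGT1/Atf4ΔHep group. It was -0.19 without replicate 1 and -0.03 without replicate 2 of the vehicle-treated hUGT1/Atf4F/F group, and -0.03 with the covariate for sex makeup.

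**Figure D3:**
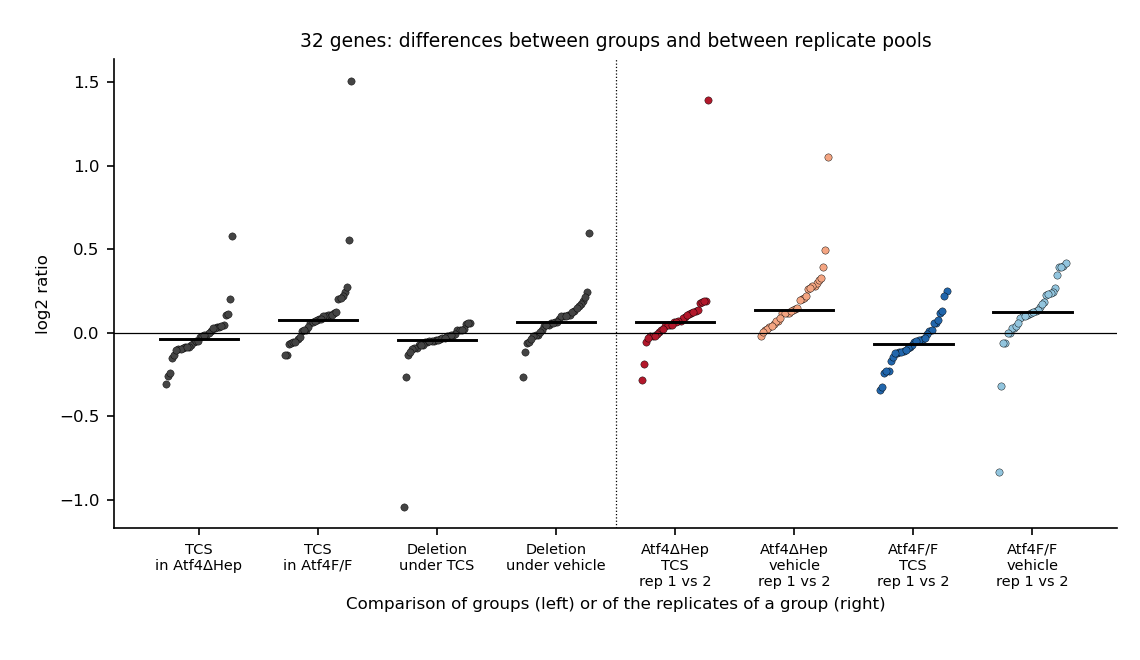
Log2 ratios of the 32 genes (dots, sorted within a column; bars are medians) for the 4 comparisons of groups on the left and, on the right, for replicate 1 over replicate 2 of each group. The medians between groups run from -0.04 to 0.08 and those between replicate pools from -0.06 to 0.14. Values on the left compare means of 2 pools and those on the right compare single pools, so their widths are not directly comparable.

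The size of change that these libraries leave room for can be read from the intervals. The 95% interval of the log2 fold change lay within -0.5 and 0.5 for 29 of the 32 genes for TCS in hUGT1/Atf4ΔHep livers (55% of all genes), for 28 for TCS in hUGT1/Atf4F/F livers (56% of all genes), for 30 for the deletion under TCS (60.4%) and for 28 for the deletion under vehicle (60%). It lay within -1 and 1 for 31, 31, 31 and 30 genes in the same order of comparisons. For the interaction, 21 intervals were within -0.5 and 0.5 and 30 within -1 and 1. The counts for the wider bound and for the interaction are given without the share of all genes and describe the 32 genes only. An interval that crosses 0 leaves the direction of that value undecided and does not show that the groups are alike.

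**Figure D4:**
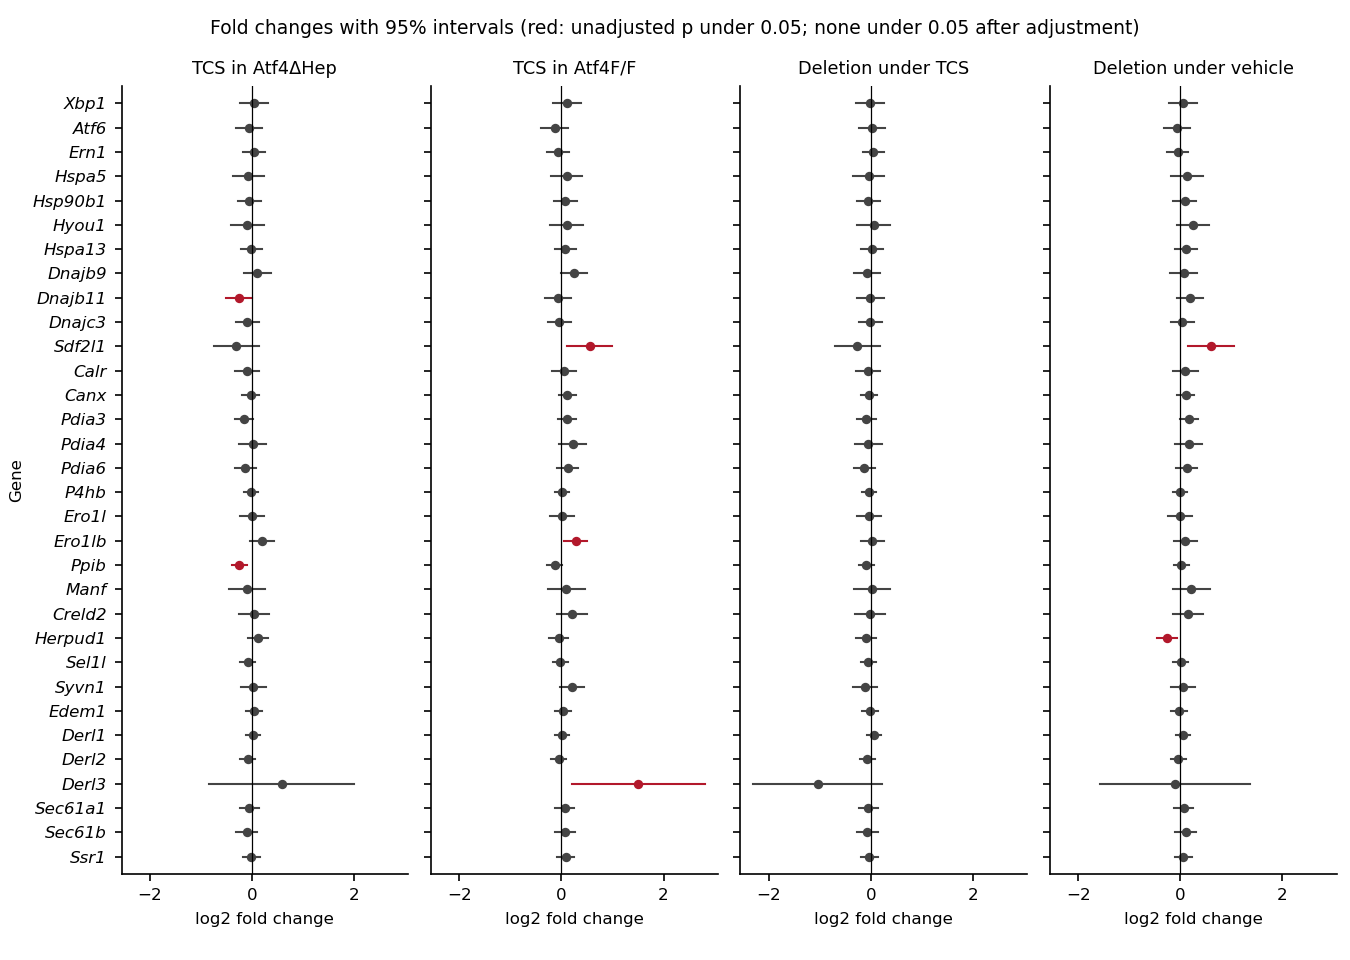
Log2 fold changes of the 32 genes (dots) with 95% intervals (lines) for TCS in each genotype and for the deletion under each treatment; red marks an unadjusted p under 0.05, and no gene passed after adjustment. Most intervals are short and cross 0, whereas Derl3 has the widest intervals and Sdf2l1 lies right of 0 for TCS in hUGT1/Atf4F/F and for the deletion under vehicle.

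Among the sensors, Xbp1 stood at 154 and 153 CPM in TCS-treated and 155 and 143 CPM in vehicle-treated hUGT1/Atf4ΔHep livers, against 146 and 164 CPM in TCS-treated and 163 and 124 CPM in vehicle-treated hUGT1/Atf4F/F livers. The vehicle pools of the F/F genotype enclosed all other values but 1, and TCS gave log2 fold changes of 0.05 ± 0.12 and 0.11 ± 0.12 (SE) in the 2 genotypes in that order. A count per gene does not separate spliced from unspliced Xbp1, which is the step that IRE1α controls. Ern1 had 42.9 and 52.1 CPM in TCS-treated and 47.8 and 45.5 CPM in vehicle-treated hUGT1/Atf4ΔHep livers, against 45.2 and 47.0 CPM in TCS-treated and 48.4 and 48.4 CPM in vehicle-treated hUGT1/Atf4F/F livers. Atf6 had 65.1 and 64.4 CPM in TCS-treated and 73.8 and 60.7 CPM in vehicle-treated hUGT1/Atf4ΔHep livers, against 66.6 and 61.3 CPM in TCS-treated and 76.6 and 63.7 CPM in vehicle-treated hUGT1/Atf4F/F livers. The log2 fold changes between 2 groups ran from -0.13 to 0.02 for Atf6 and from -0.07 to 0.05 for Ern1.

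Of the luminal chaperones, Hspa5, the standard transcript readout of the unfolded protein response, had 568 and 531 CPM in TCS-treated and 629 and 524 CPM in vehicle-treated hUGT1/Atf4ΔHep livers. In hUGT1/Atf4F/F livers it had 545 and 588 CPM with TCS, against 602 and 452 CPM with vehicle. The TCS-treated pools fell inside the range of the vehicle-treated pools in both genotypes, and the log2 fold changes for TCS were -0.07 ± 0.13 in hUGT1/Atf4ΔHep (SE, adjusted p = 0.88) and 0.11 ± 0.13 in hUGT1/Atf4F/F livers (adjusted p = 0.86). Hsp90b1 had 759.8 and 722 CPM in TCS-treated and 845 and 688 CPM in vehicle-treated hUGT1/Atf4ΔHep livers, against 742 and 788 CPM in TCS-treated and 757 and 691 CPM in vehicle-treated hUGT1/Atf4F/F livers, so that its groups overlapped too. Hyou1, an HSP110-type nucleotide exchange factor of BiP, had 132 and 121 CPM in TCS-treated and 147 and 122 CPM in vehicle-treated hUGT1/Atf4ΔHep livers, against 112 and 131 CPM in TCS-treated and 129 and 98.01 CPM in vehicle-treated hUGT1/Atf4F/F livers. Its deletion effect averaged over treatments, 0.15 ± 0.10 (SE), was among the 3 smallest p of the 32 genes and still had an unadjusted p of 0.162. Hspa13, a microsomal HSP70 without a substrate-binding domain, stayed between 27.1 and 32.4 CPM.

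The co-chaperones of BiP include the gene with the largest interaction after the sparsely counted Derl3. Sdf2l1, which acts with the J-protein ERdj3 on BiP substrates, had 11.7 and 10.7 CPM in TCS-treated and 16.1 and 11.4 CPM in vehicle-treated hUGT1/Atf4ΔHep livers, against 11.8 and 14.99 CPM in TCS-treated and 8.16 and 10.2 CPM in vehicle-treated hUGT1/Atf4F/F livers. The 2 vehicle-treated F/F pools were the lowest of all 8, and the highest was a vehicle-treated ΔHep pool. TCS gave -0.31 ± 0.19 in hUGT1/Atf4ΔHep and 0.56 ± 0.20 in hUGT1/Atf4F/F livers (SE, unadjusted p = 0.149 and 0.0199, adjusted p = 0.60 and 0.40), and the interaction was -0.86 ± 0.28 (95% interval -1.49 to -0.24, unadjusted p = 0.0125, adjusted p = 1.00). The interaction was -0.59 to -1.08 with 1 library left out and -0.57 with the covariate for sex makeup. Dnajb11, the gene of ERdj3, had 65.3 and 61.4 CPM in TCS-treated and 81.0 and 70.4 CPM in vehicle-treated hUGT1/Atf4ΔHep livers, against 58.3 and 68.9 CPM in TCS-treated and 71.9 and 60.8 CPM in vehicle-treated hUGT1/Atf4F/F livers. Its pools were apart in the first pair, at -0.26 ± 0.11 (SE, unadjusted p = 0.0483, adjusted p = 0.43), and overlapped in the second. Dnajb9 (ERdj4), a J-protein that also restrains IRE1α, was higher in both TCS-treated pools than in both vehicle-treated pools within each genotype, at 0.11 ± 0.11 in hUGT1/Atf4ΔHep and 0.24 ± 0.11 in hUGT1/Atf4F/F livers (SE, adjusted p = 0.77 and 0.53). The nearest pools were almost level. The lower TCS and higher vehicle pools had 41.2 and 41.1 CPM in hUGT1/Atf4ΔHep, and 42.3 and 42.1 CPM in hUGT1/Atf4F/F livers. Over both genotypes the treatments overlapped for Dnajb9. Dnajc3 (p58IPK), the J-protein with the highest level per length of this role, had 165 and 149.9 CPM in TCS-treated and 179.9 and 156 CPM in vehicle-treated hUGT1/Atf4ΔHep livers, against 151 and 167 CPM in TCS-treated and 174 and 153 CPM in vehicle-treated hUGT1/Atf4F/F livers, with overlap in both pairs.

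**Figure D5:**
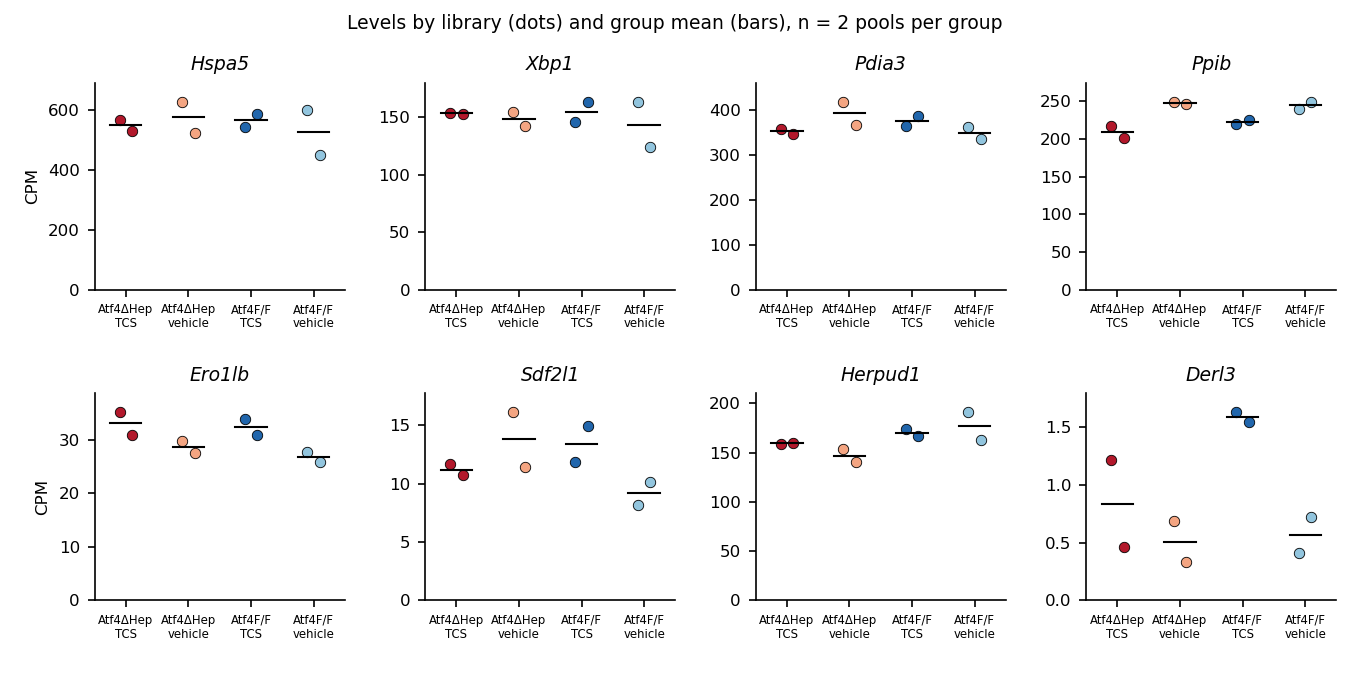
CPM of 8 genes in each library (dots) with the mean of the 2 pools of a group (bars), every vertical axis starting at 0; groups run from TCS-treated hUGT1/Atf4ΔHep on the left to vehicle-treated hUGT1/Atf4F/F on the right. Ppib is lower and Ero1lb higher in the 4 TCS-treated pools than in the 4 vehicle-treated pools, while the pools of Hspa5 and Xbp1 overlap between treatments.

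Calr and Canx, which hold glycoproteins during folding, overlapped between most groups. Calr had 709.7 and 658 CPM in TCS-treated and 811 and 652 CPM in vehicle-treated hUGT1/Atf4ΔHep livers, against 681 and 739.6 CPM in TCS-treated and 709.7 and 656 CPM in vehicle-treated hUGT1/Atf4F/F livers. Canx ranged from 292 to 346 CPM, and its TCS-treated hUGT1/Atf4F/F pools, at 327 and 338 CPM, were above the vehicle-treated ones, at 321 and 292 CPM (0.12 ± 0.07, SE, adjusted p = 0.64).

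Ppib, the luminal prolyl isomerase cyclophilin B that assists collagen and other client folding, came nearest to the threshold of all 32 genes. It had 217 and 202 CPM in TCS-treated and 248.96 and 246 CPM in vehicle-treated hUGT1/Atf4ΔHep livers, against 220.2 and 225 CPM in TCS-treated and 239.5 and 249.7 CPM in vehicle-treated hUGT1/Atf4F/F livers. All 4 TCS pools were thus below all 4 vehicle pools. The log2 fold change for TCS was -0.24 ± 0.06 in hUGT1/Atf4ΔHep (SE, unadjusted p = 0.00403, adjusted p = 0.18), -0.13 ± 0.06 in hUGT1/Atf4F/F livers (unadjusted p = 0.0615, adjusted p = 0.535) and -0.19 ± 0.04 averaged over genotypes (95% interval -0.29 to -0.09, unadjusted p = 0.00229, adjusted p = 0.068 with edgeR and 0.019 with DESeq2). Over all alternatives that average ran from -0.16 to -0.22, with adjusted p from 0.019 to 0.28. Ppib shares 825 of its exon bases (25%) with Snx22 on the opposite strand, and Snx22 had 4 to 12 counts per library. The part of those shared bases in the result, and that of the cell markers that were also lower under TCS, was not tested.

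Ero1lb, the oxidase ERO1β that recharges PDI and is known from secretory tissues such as the pancreas, had the opposite order. It had 35.2 and 31.0 CPM in TCS-treated and 29.9 and 27.5 CPM in vehicle-treated hUGT1/Atf4ΔHep livers, against 33.9 and 31.0 CPM in TCS-treated and 27.7 and 25.9 CPM in vehicle-treated hUGT1/Atf4F/F livers. The 4 TCS pools were all above the 4 vehicle pools, by 0.20 ± 0.10 in hUGT1/Atf4ΔHep (SE, adjusted p = 0.50), 0.28 ± 0.10 in hUGT1/Atf4F/F livers (adjusted p = 0.42) and 0.24 ± 0.07 averaged over genotypes (95% interval 0.08 to 0.40, unadjusted p = 0.00853, adjusted p = 0.13). The average ran from 0.19 to 0.28 over all alternatives, with adjusted p from 0.087 to 0.35. The summed acinar markers given above were also higher under TCS in hUGT1/Atf4ΔHep livers, and their part in the values of Ero1lb was not tested. Its paralog Ero1l, the broadly expressed ERO1α, stayed between 26.8 and 31.2 CPM, with a log2 fold change for TCS of 0.02 ± 0.10 in hUGT1/Atf4F/F livers (SE).

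None of the disulfide isomerases was called in any comparison. Pdia3 (ERp57), the partner of calnexin and calreticulin, had 358 and 346 CPM in TCS-treated and 418 and 365 CPM in vehicle-treated hUGT1/Atf4ΔHep livers, against 363 and 386 CPM in TCS-treated and 360.5 and 335 CPM in vehicle-treated hUGT1/Atf4F/F livers. TCS pools were lower than vehicle pools in the first genotype (-0.15 ± 0.08, SE) and higher in the second (0.11 ± 0.08), and the interaction was -0.26 ± 0.11 (unadjusted p = 0.0475, adjusted p = 1.00). Pdia6 had 174 and 153 CPM in TCS-treated and 192 and 165 CPM in vehicle-treated hUGT1/Atf4ΔHep livers, against 172 and 186 CPM in TCS-treated and 166 and 163 CPM in vehicle-treated hUGT1/Atf4F/F livers. Its interaction was -0.25 ± 0.13 (SE, unadjusted p = 0.0824, adjusted p = 1.00). P4hb, the most abundant, had 1307 and 1247 CPM in TCS-treated and 1318 and 1273 CPM in vehicle-treated hUGT1/Atf4ΔHep livers, against 1318 and 1307 CPM in TCS-treated and 1279 and 1331 CPM in vehicle-treated hUGT1/Atf4F/F livers, and its fold changes between 2 groups were -0.04 to 0.01. Pdia4 (ERp72) ranged from 143 to 196 CPM, its lowest library being a vehicle-treated and its highest a TCS-treated hUGT1/Atf4F/F pool.

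The secreted stress factors are Manf, a BiP-binding protein with trophic activity, and Creld2, and neither was called in any comparison. Manf ranged from 37.4 to 55.9 CPM, with its lowest value in a vehicle-treated hUGT1/Atf4F/F pool and its highest in a vehicle-treated hUGT1/Atf4ΔHep pool. Creld2 had 25.4 and 23.3 CPM in TCS-treated and 26.9 and 20.4 CPM in vehicle-treated hUGT1/Atf4ΔHep livers, against 24.2 and 24.998 CPM in TCS-treated and 21.6 and 21.2 CPM in vehicle-treated hUGT1/Atf4F/F livers. The second pair was apart, at 0.20 ± 0.13 (SE, adjusted p = 0.65), and the first was not.

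In ERAD, Herpud1, a membrane scaffold of the Hrd1 complex whose promoter stretch carries ERSE-II and CARE, had the smallest p of the 32 genes for the deletion under vehicle and averaged over treatments, but not under TCS. It had 159 and 159.6 CPM in TCS-treated and 153 and 141 CPM in vehicle-treated hUGT1/Atf4ΔHep livers, against 174 and 167 CPM in TCS-treated and 191 and 163 CPM in vehicle-treated hUGT1/Atf4F/F livers. All 4 deleted pools were below all 4 intact pools. The log2 fold change for the deletion was -0.10 ± 0.08 under TCS, -0.27 ± 0.08 under vehicle (SE, unadjusted p = 0.0121, adjusted p = 1.00) and -0.18 ± 0.06 averaged over treatments (95% interval -0.32 to -0.05, unadjusted p = 0.0146, adjusted p = 1.00). Leaving out 1 library at a time, the effect under vehicle ran from -0.15 to -0.38. CARE is in 3.97% of all windows, and its part in the Herpud1 values was not tested.

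The other core ERAD genes were not called in any comparison. Syvn1, the ubiquitin ligase Hrd1, ranged from 71.4 to 94.3 CPM and its partner Sel1l from 211 to 234 CPM, while Edem1, a lectin that extracts misfolded glycoproteins, stayed between 187 and 208.4 CPM. The derlins Derl1 and Derl2, membrane proteins of the retrotranslocation channel, stayed between 88.8 and 97.1 CPM and between 54.0 and 60.7 CPM. Derl3, the derlin best known from secretory tissues, had 1.21 and 0.460 CPM in TCS-treated and 0.685 and 0.331 CPM in vehicle-treated hUGT1/Atf4ΔHep livers, against 1.63 and 1.54 CPM in TCS-treated and 0.406 and 0.722 CPM in vehicle-treated hUGT1/Atf4F/F livers. TCS gave 1.51 ± 0.57 in hUGT1/Atf4F/F livers (SE, unadjusted p = 0.0271, adjusted p = 0.44), where both TCS-treated pools held 27 counts and the vehicle-treated ones 8 and 11, and 0.58 ± 0.63 in hUGT1/Atf4ΔHep livers. The acinar sum was highest in TCS-treated hUGT1/Atf4ΔHep livers, and Derl3 was read from 5 to 27 counts per library. The summed plasma and B cell markers were 7.89 to 11.8 CPM in all libraries. The part of either cell type in the Derl3 values was not tested. At the translocon, Sec61a1, the channel subunit, had 212 and 185 CPM in TCS-treated and 214 and 196 CPM in vehicle-treated hUGT1/Atf4ΔHep livers, against 205 and 206 CPM in TCS-treated and 203 and 189 CPM in vehicle-treated hUGT1/Atf4F/F livers. The other translocon genes were as level, with Sec61b between 28.9 and 34.3 CPM and Ssr1 between 99.3 and 113.9 CPM.

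A wider list of 100 further ER genes, of which 99 passed the filter, gave a similar picture. With edgeR, 0 of 99 were called for TCS in hUGT1/Atf4ΔHep livers (5 at an unadjusted p under 0.05), 0 for TCS in hUGT1/Atf4F/F livers (6), 0 for the deletion under TCS (4), 0 under vehicle (1) and 0 for the interaction (0). The shares of all genes at that unadjusted p were 11.5%, 9.73%, 3.16%, 2.87% and 2.07% in the same order. For TCS averaged over genotypes, 1 of 99 was called (2.59% of all genes). Medians were -0.02 and 0.01 for TCS in the 2 genotypes, against -0.01 and -0.0036 over all genes. The gene called was Creld1, a membrane paralog of Creld2, which rose under TCS: it had 32.4 and 29.7 CPM in TCS-treated and 25.7 and 25.7 CPM in vehicle-treated hUGT1/Atf4ΔHep livers, against 31.3 and 31.6 CPM in TCS-treated and 25.4 and 24.5 CPM in vehicle-treated hUGT1/Atf4F/F livers, an average of 0.30 ± 0.06 (SE, adjusted p = 0.038). Vcp, the p97 ATPase that pulls ERAD substrates from the membrane, had 370.1 and 380.1 CPM in TCS-treated and 348 and 316 CPM in vehicle-treated hUGT1/Atf4ΔHep livers, against 363 and 388 CPM in TCS-treated and 334 and 308 CPM in vehicle-treated hUGT1/Atf4F/F livers (0.20 ± 0.05, SE, adjusted p = 0.092). All TCS pools exceeded all vehicle pools for both genes. Nploc4, the VCP cofactor Npl4, gave 0.21 ± 0.08 for TCS in hUGT1/Atf4F/F livers (SE, adjusted p = 0.44), and Wfs1, the ER membrane protein wolframin, 0.30 ± 0.12 in hUGT1/Atf4ΔHep livers (adjusted p = 0.36).

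Pdia2, the disulfide isomerase of the pancreas, had 0.606 and 0.998 CPM in TCS-treated and 0.0623 and 0.0662 CPM in vehicle-treated hUGT1/Atf4ΔHep livers, against 0.785 and 0.343 CPM in TCS-treated and 0 and 0.197 CPM in vehicle-treated hUGT1/Atf4F/F livers, and its adjusted p for TCS averaged over genotypes was 0.064. All 13 acinar markers that could be tested were above 0 for TCS in both genotypes (medians 3.53 in hUGT1/Atf4ΔHep and 0.89 in hUGT1/Atf4F/F livers), and 3 of 13 were called for TCS averaged over genotypes (2.59% of all genes). In hUGT1/Atf4F/F livers their sums overlapped between treatments, at 67.9 and 49.8 CPM with TCS and 9.79 and 54.9 CPM with vehicle. Their part in the Pdia2 values was not tested.

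The 26 cytosolic and mitochondrial chaperones of a comparison list, which serve proteins outside the ER, had medians of 0.05 for TCS in hUGT1/Atf4ΔHep and 0.09 in hUGT1/Atf4F/F livers, beside -0.04 and 0.08 for the 32 ER genes. TCS averaged over genotypes called 1 of 26 (2.59% of all genes), Hspd1, the mitochondrial chaperonin HSP60, at 0.26 ± 0.05 (SE, adjusted p = 0.039). In the list of the PERK arm and other sensors, 19 of 20 genes could be tested, and the median log2 fold change for the deletion was -0.07 under TCS (range -0.93 to 0.29) and -0.01 under vehicle (range -1.33 to 0.19), with 4 and 8 of 19 values above 0 and none called. At an unadjusted p under 0.05 in edgeR there were 4 of these 19 genes under TCS (3.16% of all genes) and 1 under vehicle (2.87% of all genes). This list is part of the further ER genes above, so these are the same 4 and 1 genes counted there. Whether the counts differ from the shares of all genes was not tested.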

How the data were processed

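Each library came from liver RNA and a strand-specific mRNA kit. Demultiplexing with bcl2fastq 2.20 and alignment with STAR 2.7.9a to mm10 are named in the submitters' processing notes. Which program counted reads, with which annotation and strand setting, is not stated in the sources read. The authors deposited whole-number counts for each gene symbol, which were used as they stand. Their size-factor scaled counts and their comparison tables (fold changes and p-values) were not used.

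The counts entered edgeR 4.0.16 (R 4.3.3) after filterByExpr (minimum count 10, minimum total 15), which kept 13633 of 24411 genes, and TMM scaling. In the quasi-likelihood fit each of the 4 groups had its own mean, which left 4 residual degrees of freedom over 8 libraries, and the common dispersion was 0.0142. Benjamini-Hochberg adjustment ran over all genes tested, with calls under 0.05. Standard errors were obtained from the F statistic (absolute log2 value over its root), with 95% intervals. Exon lengths came from GENCODE M21 and promoters from RefSeq. Motif searches and figures used Python 3.11.15 with pandas 2.3.3, numpy 2.4.6 and matplotlib 3.10.9.

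Libraries were assigned to groups by their labels. Depth was 11624143 to 25573210 counts per library, and with 2 pools per group the spread between pools limits the precision. Replicates differed beyond sampling noise (chi-square per gene 7.71 to 17.0), so each counted as a sample. The procedure was tested on simulated data.

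The 32 genes and all lists were chosen with earlier results of these data known. Values in every library are given for genes called in any comparison, for the 3 smallest unadjusted p among the 32 in each comparison, for the highest per-length level of each role, and for Atf6, Ern1, Xbp1 and Hspa5. Of the further ER genes, those called and up to 3 with the smallest p in each TCS comparison are named. Alternatives were RLE factors, no low-count filter, the libraries of the comparison only, the replicate number as a block, DESeq2 1.42.0, an adjusted p under 0.01, a covariate for sex makeup (the level of 4 Y-linked genes relative to the library with most of it) and each library left out in turn.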

Additional observations from a re-analysis of the deposited data

Results flagged for a closer look

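Pdia3 and Sdf2l1 were noted because both pools of 1 group moved one way and both pools of the other the opposite way under the same contrast. Pdia3 had log2 fold changes for TCS of -0.15 in hUGT1/Atf4ΔHep and 0.11 in hUGT1/Atf4F/F livers, and for the deletion of -0.0896 under TCS and 0.17 under vehicle. Sdf2l1 had log2 fold changes for the deletion of -0.27 under TCS and 0.60 under vehicle. The test of these differences, the interaction in edgeR, gave -0.26 for Pdia3 and -0.86 for Sdf2l1, with adjusted p = 1.00 for both, over alternatives from -0.15 to -0.35 and from -0.57 to -1.08. Both interactions use the same 8 pools as the effects above and are not separate evidence.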

How the results depend on the processing

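With 2 pools per group, the direction of many small values was not stable: of 3264 values of these genes over all alternatives, 268 had the other sign, 25 moved by over 0.3 on the log2 scale and 1 was called. That call was Ppib for TCS averaged over genotypes with DESeq2 (-0.19, adjusted p = 0.0189), which made 1 gene called in place of 0. Between 11 and 16 of the 32 genes kept their sign in all alternatives in each comparison. The median for TCS in hUGT1/Atf4ΔHep was 0.06 without replicate 1 and -0.11 without replicate 2 of its vehicle group. The cause was not tested.

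Counts over all genes moved more. For TCS in hUGT1/Atf4F/F (76 genes) they were 139 without the filter, 33 with the libraries of the comparison only, 166 with DESeq2, 35 at an adjusted p under 0.01, 20 with the sex makeup covariate, and 33 to 165 with 1 library left out. For TCS in hUGT1/Atf4ΔHep (92) they were 200, 189, 221 and 40 in the first 4 of these settings, and 11 to 107 with 1 library left out. For TCS averaged over genotypes (353) they were 538 without the filter, 108 at an adjusted p under 0.01, 111 with the covariate and 107 to 363 with 1 library left out. The deletion under vehicle (3) gave 5 with DESeq2 and with the covariate and 2 to 3 with 1 library left out. The deletion under TCS (3) gave 5 without the filter, 7 with DESeq2 and 2 to 31 with 1 library left out. The deletion averaged over treatments (6) gave 12 with DESeq2, 3 at an adjusted p under 0.01 and 3 to 4 with 1 library left out, and the interaction (0) gave 1 with the covariate. The cause was not tested.

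The labels do not say that equal replicate numbers mark shared litters or days, and deviations of same-numbered pools correlated from -0.43 to 0.37 between groups. With the replicate number as a block, 0 of the 32 genes were called in every comparison, the deletion averaged over treatments called 3 genes in place of 6, and the other counts stayed within 1.5 times, for example 64 in place of 76 for TCS in hUGT1/Atf4F/F.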
